A study of Capra hircus with 90 samples.

Results

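The nucleus of the solitary tract (NTS) of goats kept in 6% CO2 for 24 h was compared with that of goats kept in room air for 24 h. The comparison held 12 of the 90 libraries of the study, 6 per group, taken as the libraries whose titles give this site and these exposures. The animals were outbred female goats at least 2 years old, and each library came from 1 goat. The tissue was a frozen punch 0 to 2 mm rostral to the obex, so each library mixes neurons, glia, vessels and blood. The other groups used below were the NTS after 3 h of CO2, the NTS after 7 d of CO2 or of room air, and the ventral respiratory column (VRC) and retrotrapezoid nucleus (RTN) of the same goats. The room-air, 3 h and 24 h goats were extracted and sequenced as a first batch and the 7 d goats as a second.

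The NTS is the first brainstem relay for afferents from the arterial chemoreceptors, the baroreceptors and the lungs, and some of its cells respond to CO2 and acid. Inspired CO2 raises arterial CO2, lowers the pH of blood and brain fluid, dilates brain vessels and drives breathing. Among the genes with a symbol that fell, many encode ribosomal proteins, which build the translation machinery, or small subunits of the mitochondrial respiratory chain. Another is VEGFA, a secreted growth factor that maintains and extends blood vessels and is induced by low oxygen. What the genes without a symbol encode is not known.

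Library totals lay between 17.99 and 30.4 M (mega) counts in room air (24.5 ± 4.35 M, SD, n = 6) and between 12.8 and 35.7 M after 24 h of CO2 (22.0 ± 8.03 M; exact two-sided permutation test, p = 0.513). Across the 18 NTS libraries of the first batch, the first principal component held 28.9% of the variance, and 5 libraries stood apart on it: numbers 5 and 6 of room air, number 5 of 24 h CO2, and numbers 5 and 6 of 3 h CO2. They were marked by PRPH, the peripherin of neurons with axons outside the brain, and TM4SF4, a membrane protein. PRPH was at 214.0 and 570 normalised counts per M counts (CPM) in room-air libraries 5 and 6 and at 35.5 CPM in CO2 library 5, against 1.90 to 5.80 CPM in the other 9 libraries of both groups. TM4SF4 was at 111 and 167 CPM in room-air libraries 5 and 6, at 14.9 CPM in CO2 library 5 and below 1 CPM in those 9. CO2 library 5 was set apart less than the rest of the 5. It lay at 15.12 on the first component, they at 40.62 to 71.36 and all other libraries at -35.95 to -9.64. Of other genes high on that component, ALKAL2 and SHOX2 were at 1.20 and 0.815 CPM in CO2 library 5, above those 9. NPFF and TMEM176A, at 0.815 and 3.14 CPM there, lay within the range of those 9. The share of libraries that stood apart therefore differed between the groups, 2 of 6 in room air and 1 of 6 after CO2, and results are given with them and without them. Of the 10 listed markers of NTS and dorsal vagal neurons, GRP and NPFF had a symbol in the files, and both were highest in room-air library 6, at 49.8 and 46.7 CPM. The labelled site could not be checked on the other 8, which are not analysed here.

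**Figure D1:**
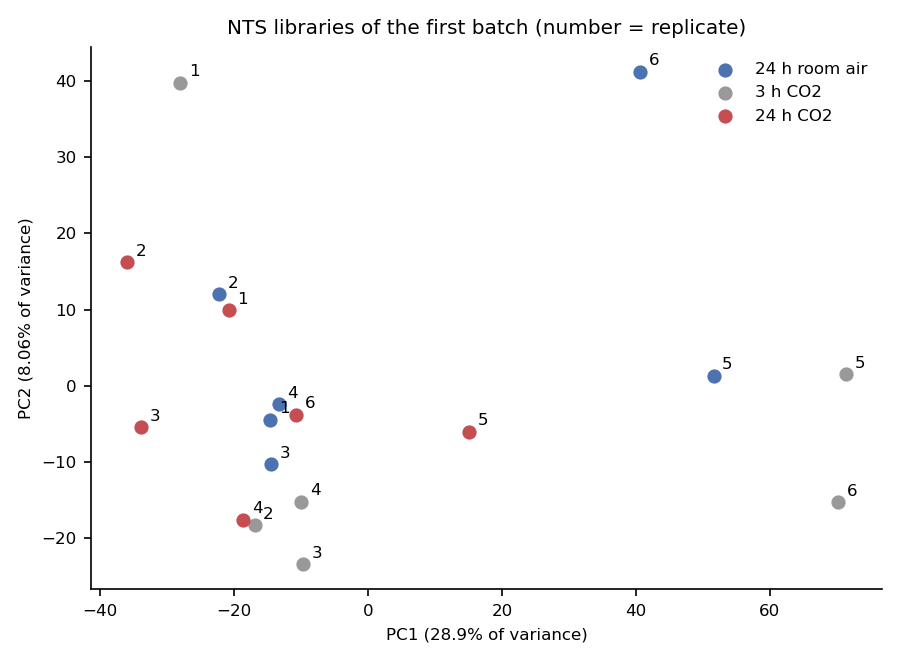
First and second principal components of the 18 NTS libraries of the first batch, computed on log2 CPM, with the axes giving their share of the variance. Colours mark the exposure and numbers the replicate: room-air 5 and 6, 3 h CO2 5 and 6, and 24 h CO2 5 lie to the right of 0 on the first component, and all others to the left.

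With all libraries, no gene of 15605 passed an adjusted p of 0.05 between 24 h of CO2 and room air (0% called; edgeR quasi-likelihood test, Benjamini-Hochberg adjustment, lowest adjusted p = 0.111). Before adjustment, 1591 genes (10.2%) had a p under 0.05, of which 678 had higher means after CO2 (4.34%) and 913 lower means (5.85%). DESeq2 called 191 genes on the same libraries and limma voom with quality weights 273. The likelihood ratio test over the libraries of all groups called 250, and the edgeR quasi-likelihood test with a replicate block 13. The count of 0 therefore depends on the test and its setting. By mean level, 218 of the 2076 genes at 100 CPM or more were lower and 91 higher at that p, with a median log2 difference of 0.03 over all 2076. Of the 8121 genes between 10 and 100 CPM, 457 were lower and 433 higher, of the 4056 between 1 and 10 CPM, 175 and 123, and of the 1352 under 1 CPM, 63 and 31.

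Without the 5 libraries, 148 of 15620 genes passed (0.948%), and 132 of them fell and 16 rose (0.845% and 0.102%; edgeR, lowest adjusted p = 0.000945). Leaving out only the 3 libraries of the compared groups and keeping the 3 h libraries gave 76 genes, 75 lower and 1 higher. Taking out single libraries from the full set changed the count of 0 in 2 cases, to 72 genes without room-air library 5 and to 114 without CO2 library 5. Beside the 148 genes, refits with 1 further library left out called 44, 45, 110 or 41 genes without room-air library 1, 2, 3 or 4. They called 187, 55, 57, 47 or 99 genes without CO2 library 1, 2, 3, 4 or 6. Of the 148 genes, 48 had a symbol, and all 48 fell. Symbols came only from the authors' deposited tables of changed genes, so the named genes had been selected on these same libraries, and neither their counts nor their direction are independent evidence. The 16 genes that rose had no symbol. Among them ENSCHIG00000018922 rose from 32.8 ± 6.83 to 60.9 ± 16.6 CPM over all 12 libraries (log2 change without the 5 libraries 1.01, SE 0.15, adjusted p = 0.00443). The lowest p belonged to another unnamed gene, ENSCHIG00000016789, which fell from 272 ± 66.9 to 166 ± 24.6 CPM (log2 change without the 5 libraries -0.66, SE 0.07, adjusted p = 0.000945).

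**Figure D2:**
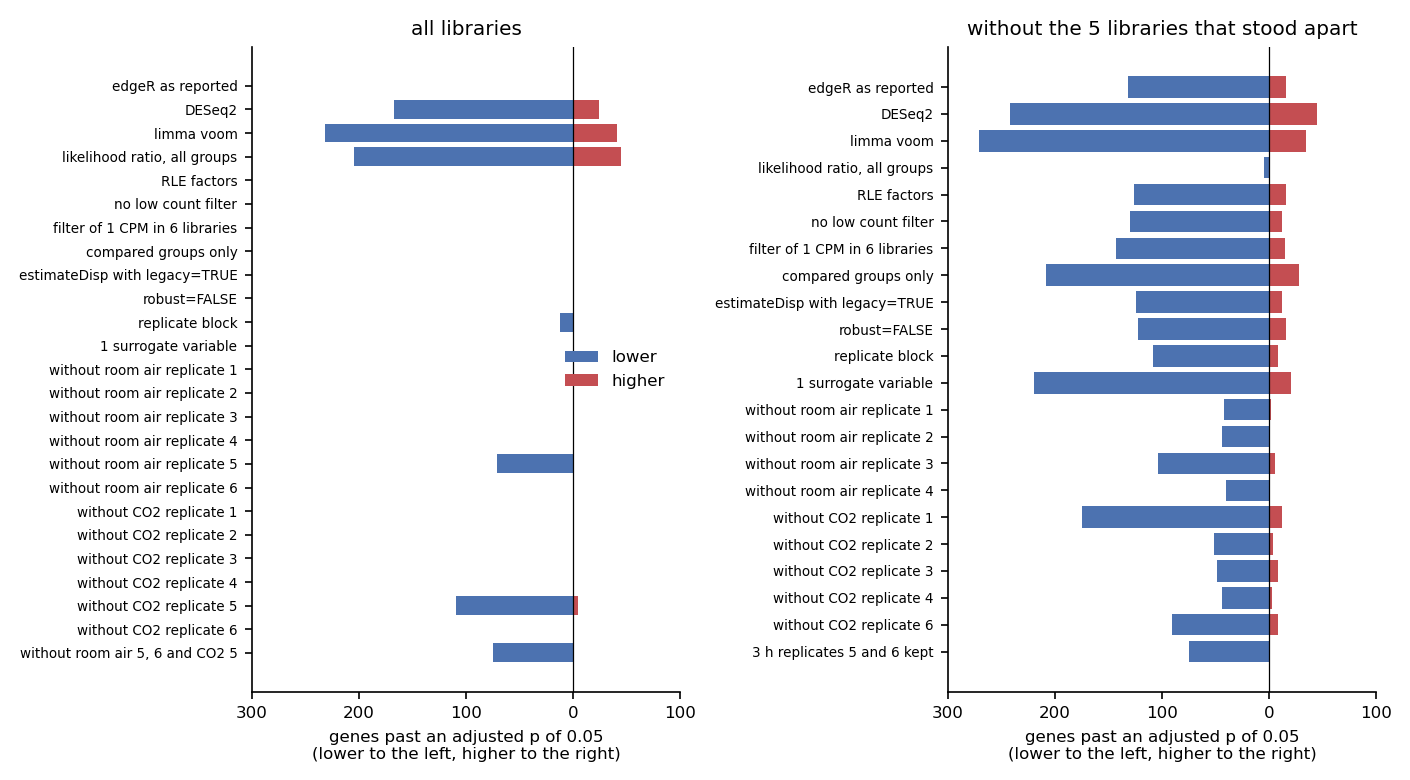
Number of genes past an adjusted p of 0.05 between 24 h of CO2 and room air in the NTS, with all libraries (left) and without the 5 libraries that stood apart (right), for each test or setting. Bars to the left count lower genes and bars to the right higher genes. Most settings with all libraries give 0, while DESeq2, voom and the likelihood ratio test give 191, 273 and 250. Without the 5 libraries every setting shown gives more lower than higher genes.

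VEGFA was lower in all 6 CO2 libraries than in any room-air library. Its level in room air was 37.9, 49.7 and 52.6 CPM (lowest, median and highest of 6) and after CO2 25.6, 28.2 and 36.9 CPM. The groups did not overlap, which held for 0.891% of all genes in this direction. The means were 47.1 ± 6.12 and 29.6 ± 4.25 CPM (SD, n = 6 each), a log2 difference of -0.66 (SE 0.13) with an adjusted p of 0.111 by edgeR with all libraries. Without the 5 libraries VEGFA fell by 0.79 (SE 0.12, edgeR adjusted p = 0.00443), and the fall passed in 9 of 9 further fits that left out 1 more library of either group. It also passed in 12 of 12 other settings of that comparison, with adjusted p-values up to 0.0267. That includes the likelihood ratio test over the remaining libraries of all groups, in which 5 genes passed in all. With all libraries, VEGFA passed in only 2 of 12 fits that left out 1 library and in 4 of 12 other settings. Room-air library 5 had the lowest and CO2 library 5 the highest VEGFA of its group, so these libraries lay closest to the other group.

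Of the 17 genes of the hypoxia and vessel growth list 6 had a symbol, and of these VEGFA alone passed without the 5 libraries. VEGFB, a related growth factor, averaged 19.7 CPM in room-air and 18.4 CPM in CO2 libraries (log2 difference -0.09, SE 0.22). VEGFC, which acts mainly on lymphatic vessels, averaged 4.68 and 4.45 CPM, a log2 difference of -0.06 (SE 0.20). EGLN1, an oxygen sensor that targets hypoxia-inducible factors for degradation, differed by 0.08 (SE 0.19). HYAL2, a hyaluronidase, and TUBB6, a tubulin, had log2 differences of 0.34 and 0.41 and adjusted p-values of 0.476 and 0.509 by edgeR.

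The ribosomal protein genes that could be read had lower levels after CO2. All of them are listed as lower in the authors' deposited table for this comparison, made from these same libraries. Their direction and their share beside all genes are therefore set in part by that choice. Ribosomal protein genes without a symbol could not be read. Of the 13 with a symbol, 8 encode proteins of the large subunit and 5 of the small subunit. Without the 5 libraries all 13 were lower and 12 of the 13 passed, while 0.845% of all genes passed in this direction. The exception was RPS15A, which was lower at an adjusted p of 0.0541 by edgeR. Their median log2 change was -0.71 with all libraries and -0.67 without the 5, beside medians of 0.01 over all genes in both fits. Summed over the 13 genes, room-air libraries held 1067.8, 1247.9 and 2153.5 CPM (lowest, median, highest) and CO2 libraries 684.8, 797.8 and 1178.1 CPM. The highest sum in room air was library 6 and the highest after CO2 was library 5, which lay above the lowest room-air sum. In the remaining 9 libraries the sums lay at 1119.7 to 1269.9 CPM in room air and 684.8 to 923.6 CPM after CO2. The overlap came from room-air library 5 and CO2 library 5, so leaving them out removed it. Of all single genes, 4.01% were lower without overlap in these 9 libraries and 1.85% higher. Those shares are not for sums or for genes already listed as lower, so they are no measure of the sums. For 3 of the 13 single genes, RPL11, RPL26L1 and RPL27, no CO2 library of the 6 reached any room-air library (0.891% of all genes).

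RPLP2, an acidic protein of the ribosomal stalk that binds elongation factors, was at 46.0, 64.5 and 97.6 CPM in room air and at 30.5, 37.2 and 59.0 CPM after CO2. Without the 5 libraries it fell from 62.4 ± 5.01 (n = 4) to 35.3 ± 3.67 CPM (n = 5), a log2 change of -0.82 (SE 0.11, edgeR adjusted p = 0.00443). RPS10, of the small subunit, fell by 0.67 (SE 0.10, edgeR adjusted p = 0.00443) in that fit. Both genes passed in 9 of 9 fits that left out 1 further library, but each in only 2 of 12 fits that left out 1 library from the full set. RPS28, also of the small subunit, had the widest difference of the 13, with medians of 71.2 and 38.6 CPM and a log2 difference of -0.95 (SE 0.25) over all libraries. It passed without the 5 libraries but in only 3 of 9 fits with 1 library fewer. The range over the 13 genes was -0.93 to -0.45 without the 5 libraries.

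The nuclear-encoded respiratory chain genes that could be read had the same direction. All of them are listed as lower in the authors' deposited table for this comparison, which sets their direction and share in part. These genes were 10 subunits of complexes I, III and IV, and all 10 passed as lower without the 5 libraries (0.845% of all genes did). NDUFA2, NDUFA6, NDUFA7, NDUFA13, NDUFB4 and NDUFS5 belong to complex I, UQCRQ and UQCR11 to complex III, and COX5B and COX6B1 to complex IV. Complex I takes electrons from NADH, complex III passes them to cytochrome c, and complex IV hands them to oxygen. Summed over the 10 genes, room-air libraries held 1709.8, 2076.5 and 3196.8 CPM and CO2 libraries 1362.3, 1406.2 and 1715.1 CPM. Again the highest sum of each group came from room-air library 6 and CO2 library 5, and the lowest room-air sum, that of library 5, was below the CO2 library 5 sum. The median log2 change of the 10 genes was -0.55 with all libraries and -0.52 without the 5.

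NDUFA6, an accessory subunit of complex I, was at 113, 153 and 243 CPM in room air and at 77.5, 93.2 and 122.9 CPM after CO2. The 2 groups overlapped through room-air library 5 and CO2 library 5. Without the 5 libraries NDUFA6 fell by 0.73 (SE 0.10) and UQCRQ by 0.58 (SE 0.08), each at an adjusted p of 0.00443 by edgeR. For 4 of the 10, NDUFA2, NDUFA7, NDUFA13 and NDUFB4, the groups did not overlap in any of the 12 libraries (0.891% of all genes). NDUFA2 was at 194, 208 and 315 CPM in room air and at 136, 147 and 171 CPM after CO2. COX5B had the weakest support, passing in 1 of 9 fits that left out a further library.

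**Figure D3:**
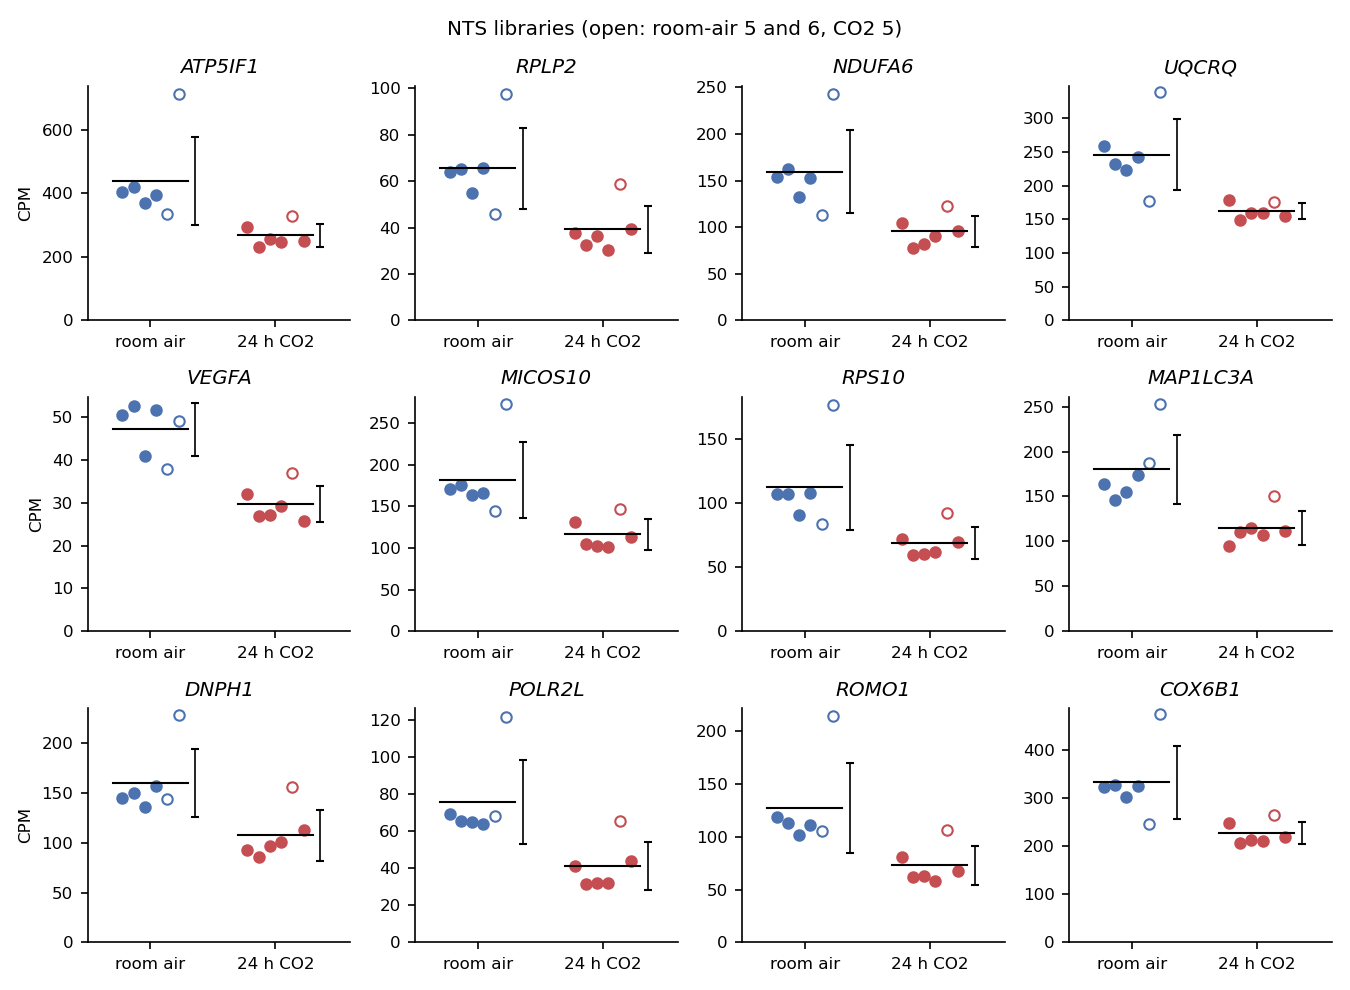
CPM of the 12 genes of lowest p without the 5 libraries, in each room-air library (blue) and 24 h CO2 library (red) of the NTS, with open points for room-air 5 and 6 and CO2 5, lines at the mean and bars of 1 SD (n = 6). In 11 of the 12 panels the highest room-air point is library 6. VEGFA, at 49.0 CPM in that library, is the exception.

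Other small mitochondrial proteins fell too. ATP5IF1, the inhibitor that stops ATP synthase from running in reverse, was at 333, 399 and 713 CPM in room air and at 230, 253 and 328 CPM after CO2, without overlap. Its log2 change was -0.71 (SE 0.16) with all libraries and -0.63 (SE 0.08, edgeR adjusted p = 0.00443) without the 5. MICOS10, a core part of the complex that forms cristae junctions, fell by 0.61 (SE 0.09, edgeR adjusted p = 0.00443) without the 5. ROMO1, an inner-membrane protein, fell by 0.75 (SE 0.12) and TOMM7, of the import channel of the outer membrane, by 0.55 (SE 0.11), both past the threshold. COX17, a copper chaperone for complex IV, had a log2 difference of -0.72 (SE 0.19) in the same fit and did not pass (edgeR adjusted p = 0.112). The levels of MICOS10 and ROMO1 overlapped between the groups through CO2 library 5, at 147 and 106 CPM.

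Of transcription and RNA processing, 4 listed genes had a symbol, and 3 of the 4 passed as lower without the 5 libraries (0.845% of all genes did). All 4 are listed as lower in the authors' deposited table for this comparison, which sets that share in part. POLR2L, a small subunit shared by the RNA polymerases, was at 64.1, 67.0 and 122 CPM in room air and at 31.8, 36.9 and 65.7 CPM after CO2, and fell by 0.85 (SE 0.13, edgeR adjusted p = 0.00591) without the 5 libraries. POLR2I, of RNA polymerase II, fell by 0.50 (SE 0.09, edgeR adjusted p = 0.0145). GTF2H5, the smallest subunit of transcription factor TFIIH, had a log2 difference of -0.49 (SE 0.15) and did not pass. LSM7, part of a ring that binds the ends of U6 and decaying RNAs, fell by 0.80 (SE 0.13, edgeR adjusted p = 0.00591). CO2 library 5 was the highest of its group for POLR2L, POLR2I and LSM7.

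Among the remaining genes that fell, MAP1LC3A encodes an LC3 protein that coats autophagosomes, and DNPH1 a hydrolase that clears modified nucleotides. MAP1LC3A was at 147, 169 and 253 CPM in room air and at 95.4, 111 and 150 CPM after CO2 (log2 change without the 5 libraries -0.57, SE 0.09, edgeR adjusted p = 0.00591). DNPH1 fell by 0.58 (SE 0.09, edgeR adjusted p = 0.00591). The rest of the 48, chosen here after their values were seen, include TXN, the thioredoxin that reduces disulfides, SEC61G of the translocation channel, and PFDN6 of the prefoldin chaperone. Their log2 changes without the 5 libraries were -0.53, -0.81 and -0.53.

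**Figure D4:**
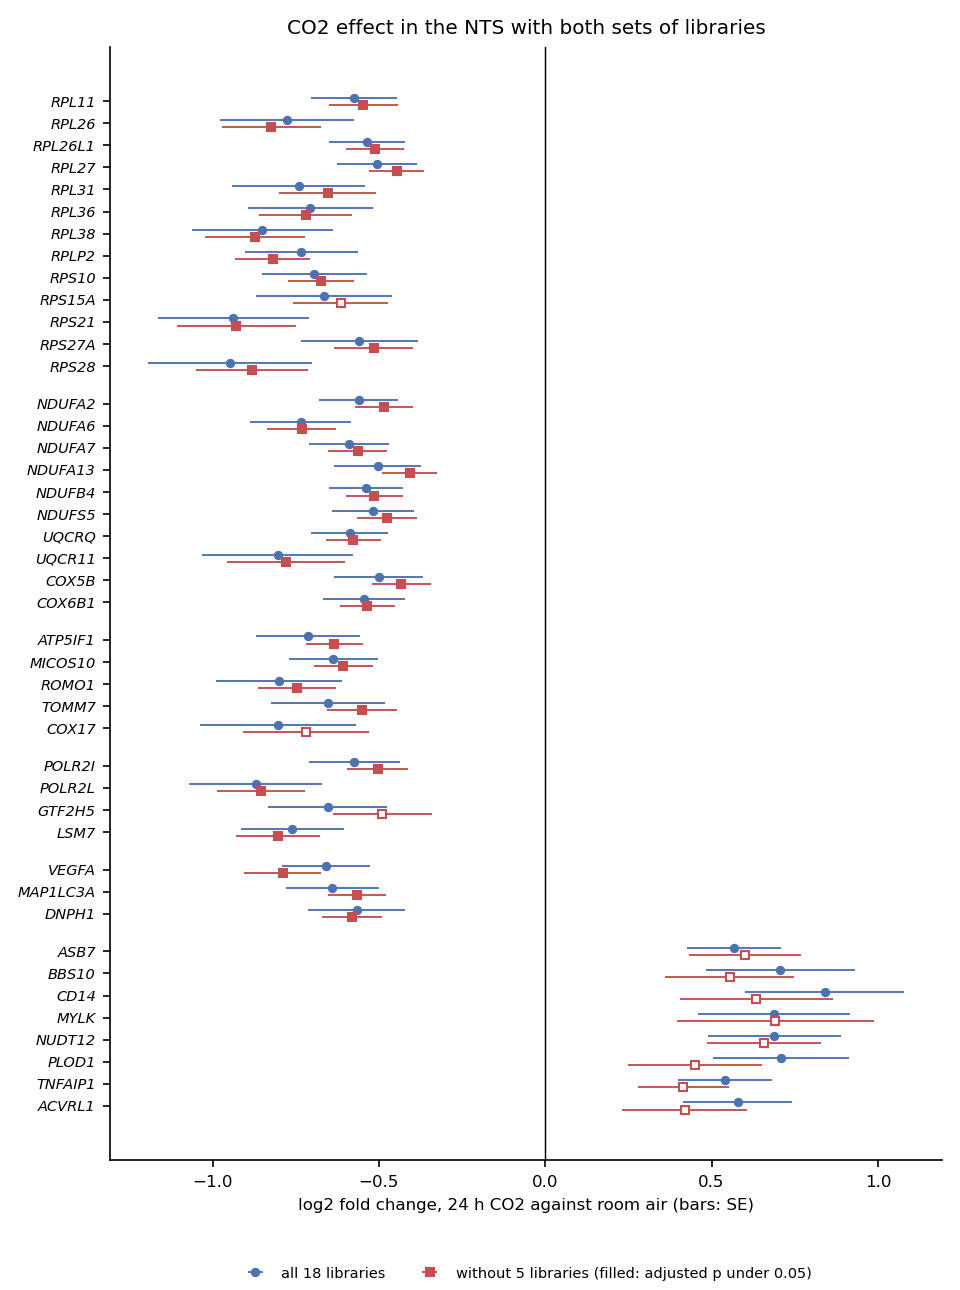
Log2 fold change of 24 h of CO2 against room air in the NTS with its standard error, with all 18 libraries in the fit (circles) and without the 5 that stood apart (squares, filled where the adjusted p is under 0.05). From the top, the blocks hold ribosomal proteins, respiratory chain subunits, other mitochondrial proteins, transcription and RNA processing, VEGFA with MAP1LC3A and DNPH1, and genes with higher means. The lower genes change little between the fits, with medians of -0.71 and -0.67 for the ribosomal proteins, and no square on the right is filled.

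A single library set the upper end of most of these genes. Of the 92 genes that were tested, carry a symbol and are listed as lower in the authors' deposited table for this comparison, 83 had their highest value of the 12 libraries in room-air library 6 and 5 in room-air library 5. All 13 ribosomal and all 10 respiratory chain genes were highest in room-air library 6. Without room-air library 6 alone no gene passed, as with all libraries, and the log2 difference of NDUFA6 was -0.57 in place of -0.74. Of the 92 genes, 10 kept under 0.5 of their log2 change once the 5 libraries were left out. The authors' deposited table lists 180 genes for this comparison, 25 higher and 155 lower. Of the 172 tested without the 5 libraries, 171 had the direction of that table and 90 passed, where 0.948% of all genes passed. Seen from the other side, 90 of the 148 genes that passed are in the table. The table was made from these same libraries, most of which remain in this fit. The shared direction and the overlap are therefore set in large part beforehand and are no independent evidence.

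Genes with higher means after CO2 did not pass in either fit where they had a symbol. ASB7, a substrate receptor of a ubiquitin ligase, was at 7.23, 7.79 and 9.34 CPM in room air and at 10.3, 11.4 and 15.0 CPM after CO2. The groups did not overlap (0.372% of all genes in this direction), and the log2 difference was 0.57 (SE 0.14, edgeR adjusted p = 0.123). NUDT12, a hydrolase that removes NAD caps from RNA, was at 17.3, 22.1 and 23.0 CPM in room air and at 25.3, 32.6 and 46.0 CPM after CO2, also without overlap (log2 difference 0.69, SE 0.20, edgeR adjusted p = 0.179). TNFAIP1, an adaptor of a ubiquitin ligase, was another named gene whose groups did not overlap, with medians of 16.7 and 23.8 CPM. PLOD1, which hydroxylates lysines of collagen, and MYLK, the myosin light chain kinase of smooth muscle, had log2 differences of 0.71 and 0.69 and overlapping groups. ACKR1, a chemokine-binding receptor of venules, had a log2 difference of 2.22 (SE 0.74, edgeR adjusted p = 0.273). It rested on CO2 libraries 5 and 1, at 85.8 and 32.8 CPM, while the other 4 CO2 libraries lay between 2.43 and 6.54 CPM. BBS10, a chaperonin-like protein of cilia, differed by 0.71 (SE 0.22), and its lowest value, 3.74 CPM, was in room-air library 6.

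COX1 is the symbol that RefSeq's goat gene table (ARS1.2) gives to the mitochondrially encoded catalytic subunit of complex IV. The deposited table gives the symbol alone, so the gene was taken as mitochondrial by its symbol. Its mean was higher after CO2, where COX5B and COX6B1 of the same complex fell. It was at 83.4, 323 and 554 CPM in room air, and after CO2 5 libraries lay between 904 and 1629 CPM and library 5 at 130 CPM. The log2 difference was 1.71 (SE 0.63, edgeR adjusted p = 0.346) with all libraries and 1.67 (SE 0.65, edgeR adjusted p = 0.430) without the 5, so it passed in neither. The lowest COX1 of each group was in room-air library 6 and CO2 library 5, the same libraries in which the sums of nuclear respiratory chain genes were highest. No other mitochondrially encoded gene had a symbol.

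Markers of other cell types were few, because most had no symbol. In bulk tissue, fewer cells of a type and less RNA per cell cannot be told apart. Of the microglia and myeloid list, 2 of 13 genes could be read. AIF1, the microglial Iba1, was at 55.2, 60.4 and 112 CPM in room air and at 28.1, 45.6 and 65.5 CPM after CO2 (log2 difference -0.64, SE 0.21, edgeR adjusted p = 0.247). CD14, a co-receptor for bacterial lipopolysaccharide on myeloid cells, differed by 0.84 (SE 0.24) in the other direction. Of the erythroid list of 10, HBQ1, a globin of the alpha cluster, fell by 0.80 (SE 0.17, edgeR adjusted p = 0.0332) without the 5 libraries, and HEMGN, a nuclear factor of erythroid cells, had a log2 difference of 1.34 (SE 0.47) and did not pass. Of the endothelial list of 9, ACVRL1, NOS3 and THBD could be read, with log2 differences of 0.58, 0.50 and 0.36 with all libraries, and none passed. Of the choroid plexus and ependyma list of 6, TTR, the transthyretin that choroid plexus secretes, was at 1.04, 1.82 and 3.64 CPM in room air and at 0.761, 1.80 and 35.2 CPM after CO2. CO2 libraries 3 and 5, at 35.2 and 18.8 CPM, were high and the other 4 lay within or below the room-air range (log2 difference 2.41, SE 1.30, edgeR adjusted p = 0.548). TTR averaged 30.1 ± 62.0 CPM at 3 h, and in the VRC 1.78 ± 0.75 CPM in room-air goats and 35.2 ± 63.0 CPM in CO2 goats. Of the oligodendrocyte list of 8, OLIG1 and OLIG2, transcription factors of that lineage, had log2 differences of 0.09 (SE 0.43) and 0.07 (SE 0.34) in the NTS. In the VRC, OLIG1 fell by 1.91 (SE 0.43, edgeR adjusted p = 0.0490) and OLIG2 had a log2 difference of -1.32 (SE 0.32, edgeR adjusted p = 0.0547). No astrocyte, pericyte or meningeal marker could be read. Of other listed genes, the translation factors EIF3B and EIF4E3 had log2 differences of 0.15 (SE 0.31) and 0.16 (SE 0.18), and NR1D2, a repressor of the circadian clock, of 0.01 (SE 0.15). PRPH had a log2 difference of -3.94 (SE 1.83) with all libraries and of -0.44 (SE 0.26) without the 5. The part of cell composition in the falls above was not tested.

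The 24 h goats were then set beside the other times and sites. The 48 named genes were chosen for their fall in the 24 h NTS libraries, which are one side of each direct comparison below. The direction of those differences, and how far their counts exceed the share of all genes, is therefore set in part by that choice, and the counts are given as a description. Both exposures share the room-air libraries, so their changes are not independent. The 48 named genes that fell at 24 h had a median log2 change of -0.64 with all libraries, and at 3 h of -0.36. At 3 h all 48 were below 0 and 31 had an unadjusted p under 0.05 (3.06% of all genes in this direction). VEGFA differed from room air by -0.64 at 3 h and -0.66 at 24 h, with 30.1 ± 6.33 CPM at 3 h. The direct comparison of 24 h with 3 h uses no room-air library in its contrast, and no gene of 15605 passed it (0% called; edgeR, lowest adjusted p = 0.0649; 1776 genes, 11.4%, at an unadjusted p under 0.05; 15 by DESeq2, 2 without the 5 libraries, 48 with a replicate block, 12 higher and 36 lower). The lowest p among named genes belonged to VEGFC, at 10.3 ± 2.40 CPM after 3 h and 4.45 ± 0.75 CPM after 24 h (log2 difference -1.21, SE 0.19, edgeR adjusted p = 0.0649). MAP1LC3A averaged 178 ± 29.9 CPM at 3 h and 115 ± 18.7 CPM at 24 h (-0.63, SE 0.14), and its 3 h level was near that of room air, 180 ± 38.3 CPM. THBD, an endothelial receptor for thrombin, differed by -1.23, and GSAP, ABHD17B and PLOD1 by 0.76, 0.71 and 0.64. For the 48 genes the median difference between 24 h and 3 h was -0.30, and 18 of them had an unadjusted p under 0.05 (6.49% of all genes in this direction).

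After 7 d of CO2, against goats kept 7 d in room air, the same 48 genes had a median log2 change of 0.15, and 47 were above 0. The exception was VEGFA, at -0.35, whose level was 33.7 ± 4.79 CPM in 7 d room-air goats and 26.4 ± 4.56 CPM in 7 d CO2 goats. The 7 d effect minus the 24 h effect was tested on all 30 NTS libraries, and 72 of 16047 genes passed (0.449%), 56 with a higher value at 7 d (0.349%). The count was 126 without the 5 libraries and 302 with DESeq2. Of the 48 genes, 20 passed, all with a higher value. Among them were NDUFA2 (0.76, SE 0.14), POLR2I (0.86, SE 0.16) and UQCRQ (0.77, SE 0.15), each at an adjusted p of 0.0316 by edgeR. Of the respiratory chain genes 8 of 10 passed and of the ribosomal protein genes 2 of 13. ACVRL1, an endothelial receptor of the TGF-beta family, was the named gene of lowest p in the other direction (-1.20, SE 0.23, edgeR adjusted p = 0.0316), and TNFAIP1 differed by -0.79. For VEGFA the difference was 0.33 (SE 0.19, edgeR adjusted p = 0.442). The times also differ in batch and in the room-air group each was compared with, and these cannot be told apart.

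Between sites of the same goats, the 24 h effect in the NTS differed from that in the VRC for 782 of 16339 genes (4.79%; edgeR with the goat as a block), with 538 lower in the NTS (3.29%) and 244 higher (1.49%). Of the 48 genes 46 passed, all with a lower value in the NTS. Their median log2 change was 0.33 in the VRC, where 46 were above 0, 23 of 48 had an unadjusted p under 0.05, all but VEGFA with higher means (5.74% of all genes in that direction), and none passed. NDUFA6 in the VRC averaged 134 ± 38.1 CPM in room-air goats and 188 ± 14.6 CPM in CO2 goats, and its effect differed by -1.24 (SE 0.24, edgeR adjusted p = 0.0021). All 13 ribosomal and all 10 respiratory chain genes passed this test. Named genes of lowest p were SMIM11, a small membrane protein, at -1.24, NDUFB4 at -0.95 and GTF2H5 at -1.01, and in the other direction MTCL2, EIF4E3 and CCNY at 0.88, 0.82 and 0.95. ASB7 and BBS10 also had higher values in the NTS, by 0.92 and 0.95 (edgeR adjusted p = 0.00724 and 0.0320). COX1 differed by 3.36 (SE 0.93, edgeR adjusted p = 0.0290), and its VRC means were 911 ± 416 CPM in room-air goats and 257 ± 65.8 CPM in CO2 goats. The count of 782 genes was 829 without the 5 NTS libraries and 398 without the goat as a block.

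VEGFA was not among the genes whose effect differed between sites. Its log2 differences after 24 h were -0.66 in the NTS, -0.63 in the VRC and -0.52 in the RTN, and the NTS differed from the VRC by -0.03 (SE 0.17, edgeR adjusted p = 0.961). Against the RTN no gene of 16339 passed (0% called; edgeR, lowest adjusted p = 0.662; 931 genes at an unadjusted p under 0.05; 0 by DESeq2). The 48 genes had a median log2 change of -0.10 in the RTN, with 43 below 0. Of these genes 46 had an unadjusted p under 0.05 in the comparison of the NTS with the RTN (3.6% of all genes in this direction), and none passed the adjusted threshold.

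**Figure D5:**
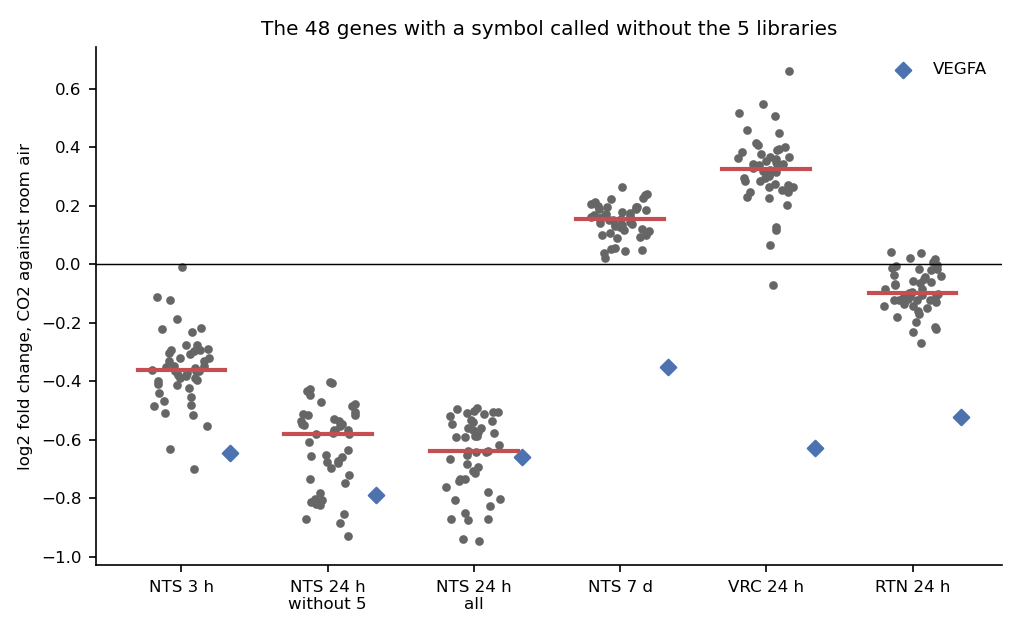
Log2 fold change of CO2 against room air for the 48 genes with a symbol that fell in the NTS at 24 h without the 5 libraries, in the NTS at 3 h, 24 h and 7 d and in the VRC and RTN at 24 h. Points are genes, red lines the medians over the 48 (-0.36, -0.58, -0.64, 0.15, 0.33 and -0.10 from left to right) and the blue diamond VEGFA, which lies below 0 in all 6 columns; the 3 h and 24 h columns of the NTS share room-air libraries.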

How the data were processed

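RNA from frozen punches was made into SMART-Seq v4 and Nextera XT libraries and read as 100-bp pairs, per the labels' protocols. Of tools, the submitters' processing notes name edgeR 4.6, featureCounts 2.0.6, STAR 2.7.10b and fastp 0.24.0. No genome build is named in the sources used here. The authors deposited raw counts per Ensembl gene for 25144 genes and, per the file headers, tables with log2 fold changes and log2 CPM, likelihood ratios (a score) and p-values. No count column was left out (0).

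Symbols were linked by refitting the likelihood ratio test over 90 libraries (minimum count of 5, 17730 genes): all 342 deposited entries matched 1 gene each by equal log2 CPM, which gave 238 symbols. The counts went through edgeR 4.0.16 under R 4.3.3 (TMM, filterByExpr, glmQLFit with robust=TRUE, quasi-likelihood F test, Benjamini-Hochberg, threshold 0.05). The fit used the 18 NTS libraries of the first batch or the 13 left without the 5 that stood apart. The SE is the log2 change divided by the root of F. CPM use TMM factors over all libraries.

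Site comparisons kept the goat as a block, since each goat gave a punch at each site. Alternatives were DESeq2 1.42.0, limma 3.58.1 voom, sva 3.50.0, RLE factors, other filters and libraries, left-out libraries and a replicate block. The edgeR test was checked on simulated data. These had the same spread for all genes and no libraries that stood apart, so the check does not cover such libraries. Named genes are the 12 of lowest p in each direction that passed without the 5 libraries with a mean of at least 1 CPM, the 10 in each direction with all libraries, fixed list members (at most 6 values per list), and in comparisons of times and sites the 3 of lowest p in each direction. Lists were sets of symbols or patterns of symbol names, and a list without a readable member gave no value. Immediate early, acid-base sensing, glucocorticoid, heat shock, interferon, mitochondrial ribosome, complex II and proteasome genes had none. The members, lists, tests and the libraries left out were chosen with earlier results of these data known. Replicates are different goats.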

Additional observations from a re-analysis of the deposited data

Results flagged for a closer look

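In 130 groups of 6 values, 47 held a value set far from the rest. The groups were 1 per exposure for each named gene and for library total, genes detected and share of the 50 highest genes. Genes named only for the comparisons of times and sites were not checked. By the cut-off used, that of Dixon's test, independent groups of normally distributed values would hold such a value in about 1 in 20 cases. CPM need not follow that distribution, so the rate expected here is not known. The 130 groups share the same 12 libraries, so the 47 are not separate events. The gap of such a value to its nearest neighbour took most of the range of its group. Most were in room-air library 6. Of ribosomal protein genes it held RPL11 at 130.3 CPM, RPL26 at 112, RPL27 at 277, RPL38 at 124, RPS10 at 176, RPS15A at 76.7, RPS21 at 136, RPS27A at 447 and RPS28 at 160.4. Of respiratory chain subunits it held COX5B at 717 CPM, COX6B1 at 474, NDUFA13 at 298, NDUFA2 at 315, NDUFA7 at 179.6, NDUFB4 at 185, NDUFS5 at 414 and UQCR11 at 33.2. Of the neuronal genes it held GRP at 49.8 CPM, NPFF at 46.7 and PRPH at 569.6. Others with their far highest value there were ATP5IF1 at 713 CPM, COX17 at 185, DNPH1 at 228, GTF2H5 at 77.2, LSM7 at 46.7, MICOS10 at 272, POLR2I at 91.2, POLR2L at 122, ROMO1 at 214 and TOMM7 at 204. NUDT12 had its far lowest value in that library, at 17.3 CPM.

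After 24 h of CO2, library 5 was far above the other 5 libraries for ACKR1 at 85.8 CPM, HBQ1 at 15.8, LSM7 at 27.9, MAP1LC3A at 150.5, POLR2I at 51.2, POLR2L at 65.7, PRPH at 35.5, RPL38 at 67.3 and RPLP2 at 59. Other far values were BBS10 at 18.01 CPM in CO2 library 1, EGLN1 at 72.8, EIF3B at 151, NR1D2 at 52.6 and OLIG1 at 88.2 CPM in CO2 library 6, TTR at 3.64 CPM in room-air library 6 and HEMGN at 1.15 CPM in room-air library 1. Room-air library 6 and CO2 library 5 are among the 5 libraries left out of the second fit, and the part of their cell composition was not tested.

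The 24 h effect differed between sites or times past an adjusted p of 0.05 by edgeR for many named genes. The NTS effect minus the VRC effect, on the log2 scale, was -1.24 for NDUFA6, -1.14 for POLR2L, -1.12 for LSM7, -1.08 for RPLP2, -1.07 for ROMO1, -1.03 for RPS10, -1.03 for ATP5IF1, -0.95 for NDUFB4, -0.94 for COX6B1, -0.92 for MICOS10, -0.90 for RPL26L1, -0.88 for NDUFA7, -0.85 for UQCRQ, -0.83 for NDUFA2, -0.80 for DNPH1 and -0.55 for MAP1LC3A. It was 0.95 for BBS10 and 0.92 for ASB7. The 7 d effect minus the 24 h effect in the NTS was 1.03 for ROMO1, 0.87 for NDUFA6, 0.86 for RPS10, 0.86 for MAP1LC3A, 0.84 for ATP5IF1, 0.82 for MICOS10, 0.78 for DNPH1, 0.78 for NDUFA7, 0.77 for UQCRQ, 0.76 for NDUFA2, 0.72 for COX6B1 and 0.61 for NDUFB4. It was -1.20 for ACVRL1 and -0.79 for TNFAIP1. The 7 d goats are of the second batch, so time and batch cannot be told apart.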

How the results depend on the processing

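With all libraries, the count of 0 genes between 24 h of CO2 and room air became 191 with DESeq2, 273 with voom, 250 with the likelihood ratio test over all groups, 13 with a replicate block, 76 without the 3 libraries of the compared groups together, and 0 to 114 without single libraries. It stayed at 0 in the 7 other settings run. Without the 5 libraries, the 148 genes became 287 with DESeq2, 306 with voom, 5 with the likelihood ratio test, 236 with only the compared groups, 241 with a surrogate variable, 76 with the 3 h libraries kept, 116 with the replicate block, and 41 to 187 without single further libraries. The cause of these differences was not tested.

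Against 3 h of CO2 the count of 0 became 15 with DESeq2, 2 without the 5 libraries and 48 with the replicate block. For the 7 d effect minus the 24 h effect, 72 became 302 with DESeq2, 45 without a filter on low counts, 126 without the 5 libraries and 113 with the replicate block. For the NTS minus the VRC, 782 became 398 with no replicate block (the goat), and against the RTN all 5 alternatives gave 0. The replicate number was no known pairing between exposures: deviations of same-numbered room-air and 24 h CO2 libraries correlated at 0.0314 to 0.323 (median 0.131, against -0.0187 for other numbers), 4 of 6 pairs over 0.1, and 5 of 12 libraries correlated best with their own number.

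Direction changed only for genes that did not pass. With all libraries, NPFF reached 0.17, OLIG2 -0.061 and NR1D2 -0.035 without the 3 libraries. NR1D2 was at -0.019 with voom, -0.0025 with the likelihood ratio test, -0.0004 without a filter, -0.0029 with a filter of 1 CPM, -0.0049 with only the compared groups, -0.0056 with the replicate block and -0.020 with a surrogate variable. OLIG1 was at -0.012 with the replicate block and -0.024 with a surrogate variable, and OLIG2 at -0.019 with voom and -0.11 with a surrogate variable. Without single libraries, EIF3B lay between -0.13 and 0.28, NR1D2 between -0.15 and 0.066, OLIG1 between -0.35 and 0.24, OLIG2 between -0.15 and 0.17, EGLN1 between -0.048 and 0.12 and VEGFC between -0.16 and 0.041. Without the 5 libraries, THBD was at -0.012 with DESeq2, -0.025 with the likelihood ratio test and -0.010 with legacy=TRUE, NPFF at -0.39, OLIG1 at -0.38, EIF3B at -0.077 and EIF4E3 at -0.034 with the replicate block, and VEGFC at 0.018, NR1D2 at 0.050 and OLIG2 at 0.12 with a surrogate variable. Without single further libraries ACKR1 ranged from -0.039 to 1.61, EGLN1 from -0.017 to 0.23, VEGFB from -0.26 to 0.016, VEGFC from -0.22 to 0.14, THBD from -0.18 to 0.19, NPFF from -0.48 to 0.63, TTR from -0.0048 (without CO2 library 3) to 2.77, EIF3B from -0.032 to 0.47, EIF4E3 from -0.044 to 0.23, NR1D2 from -0.20 to 0.046, OLIG1 from -0.37 to 0.31 and OLIG2 from -0.31 to 0.067. Depth, 12.8 to 35.7 M counts per library, limits genes under 1 CPM.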
